A study of Mus musculus with 6 samples.

Results

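The genes described here encode the input side of interferon signalling: the ligand interferon beta (Ifnb1), the chains of the type I receptor (Ifnar1 and Ifnar2) and of the type II receptor (Ifngr1 and Ifngr2), the kinases Jak1, Jak2 and Tyk2, and the transcription factor Stat2. They were chosen by gene name, 9 of the 54532 genes in the table, and the table had a row for each of the 9. Earlier results of these data were known at that choice. The table came from bulk RNA-seq of primary endothelial cells (MAEC) cultured from mouse aorta, made to study OCT4, the pluripotency factor encoded by Pou5f1. There were 3 libraries of female and 3 of male cells. Both groups carried the Oct4 KO genotype, a knockout made specific to endothelial cells, and both were grown without treatment in F-12 medium with serum, heparin and endothelial growth factors. The driver of the deletion, the strain and the age of the mice are not given in the sources used here, and wild-type cells were not analysed here. The comparison is therefore between female and male cells of the same genotype. The labels do not tie the 3 libraries of a sex to different animals or cultures, so p-values measure the spread between these libraries and that spread may be technical only.

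In background terms, type I interferons bind IFNAR1 and IFNAR2, which signal through the kinases TYK2 and JAK1. These phosphorylate STAT2, which joins IRF9 in the complex ISGF3 and so reaches interferon-stimulated response elements (ISRE) at antiviral genes. Interferon gamma binds IFNGR1 and IFNGR2, which signal through JAK1 and JAK2 to genes with gamma-activated sites (GAS). Nearly all cell types carry these receptors, endothelial and stromal cells of the vessel wall among them. Stat2 and Irf9 are themselves induced by interferon.

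Promoter stretches are shown for Stat2 and Ifnar2 as examples of members that held letters of either element, which the pathway's factors bind. The windows ran from 250 bases before to 50 after each RefSeq start (build GRCm38.p6), and all 9 members had one. The ISRE was searched as GAAA, any 2 bases and GAAA again, and the GAS as TTCNNNGAA, on both strands. Among all 32851 windows of the table, 3.44% held the ISRE letters and 8.3% the GAS letters. Of the 9 members, 1 held the ISRE letters, Stat2, and 2 held the GAS letters, among them Ifnar2; not every match is shown. The Stat2 match lay 222 bases before the start, on the reverse strand. Windows of Ifit1 and Isg15, a pair of textbook ISGF3 targets, are given for comparison, with 2 matches in Ifit1 and 3 overlapping ones in Isg15. Capitals mark the matched letters, each stretch is written 5′ to 3′ along the gene's strand, and a match describes letters, not a bound site.
Stat2 (chr10:128270248-128270315, plus strand): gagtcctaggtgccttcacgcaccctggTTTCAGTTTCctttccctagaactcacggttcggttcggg
Ifit1 (chr19:34640755-34640843, plus strand): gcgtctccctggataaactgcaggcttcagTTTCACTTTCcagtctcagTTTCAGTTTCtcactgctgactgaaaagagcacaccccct
Isg15 (chr4:156200845-156200926, minus strand): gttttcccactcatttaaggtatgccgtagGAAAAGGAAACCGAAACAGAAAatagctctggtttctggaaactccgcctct
Ifnar2 (chr16:91372539-91372607, plus strand): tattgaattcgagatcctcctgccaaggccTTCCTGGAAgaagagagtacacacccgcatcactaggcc

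Each female library held 20404758 to 21483163 counts and each male library 19299742 to 23064738. Pou5f1 had 0 counts in all 6 libraries, which without wild-type cells does not check the genotype. The labelled cell type was not borne out by its defining markers. Of 10 endothelial markers, 9 were under 1 CPM (the count scaled to library size, as described with the processing) in every library, and Emcn, Cldn5 and Robo4 had 0 counts in all 6. The 10 summed to 1.93 to 2.66 CPM in female and 1.71 to 3.21 CPM in male libraries. Of 10 fibroblast and mesenchymal markers, 8 reached 10 CPM in every library, and the list summed to 15301 to 17101 CPM in female and 7125 to 7659 CPM in male libraries. Much of that gap was Dcn, which averaged 6375 CPM in female and 442 CPM in male cells. Of the 10, 7 were higher in female cells, Col1a2 and Pdgfrb were lower and Col1a1 was not called (edgeR adjusted p under 0.05). Of all genes tested 30.9% were higher and 29.8% lower. Of 8 smooth muscle markers, 5 were under 1 CPM in every library, and the list summed to 60.9 to 64.8 CPM in female and 155 to 168 CPM in male libraries. Most of that sum was Smtn, which averaged 57.5 CPM in female and 132 CPM in male cells. Leukocyte markers summed to 14.0 to 17.8 CPM in female and 52.8 to 64.6 CPM in male libraries. Of the leukocyte markers, Lyz2 was lower in female cells, averaging 9.89 CPM there and 54.6 CPM in male cells, Cd68 was higher, averaging 5.78 CPM in female and 2.41 CPM in male cells, and Ptprc, Adgre1, Cd3e, Nkg7 and Siglech were at 0 in all 6. The part of these differences in the results below was not tested. In such bulk samples fewer cells of a type and less RNA per cell cannot be told apart.

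The receptor chains, kinases and Stat2 were all transcribed in cells of both sexes, while no RNA of the ligand was read. Of the 9 members, Ifnb1 could not be tested and 8 were compared between the sexes. Ifngr2, Stat2, Jak1, Ifnar1 and Tyk2 were higher in female cells and Ifngr1, Jak2 and Ifnar2 were lower, so each receptor had a chain that was higher and a chain that was lower. All 8 were called (edgeR adjusted p under 0.05) and in all 8 the libraries of the sexes did not overlap. A call was the common outcome in this comparison: of all 14814 tested genes 60.7% were called, 30.9% higher and 29.8% lower, and the libraries did not overlap for 67.1%. The median size of the members' log2 fold change was 1.04, against 0.53 over all genes tested, and their signed median was 0.54 against -0.01.

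**Figure D1:**
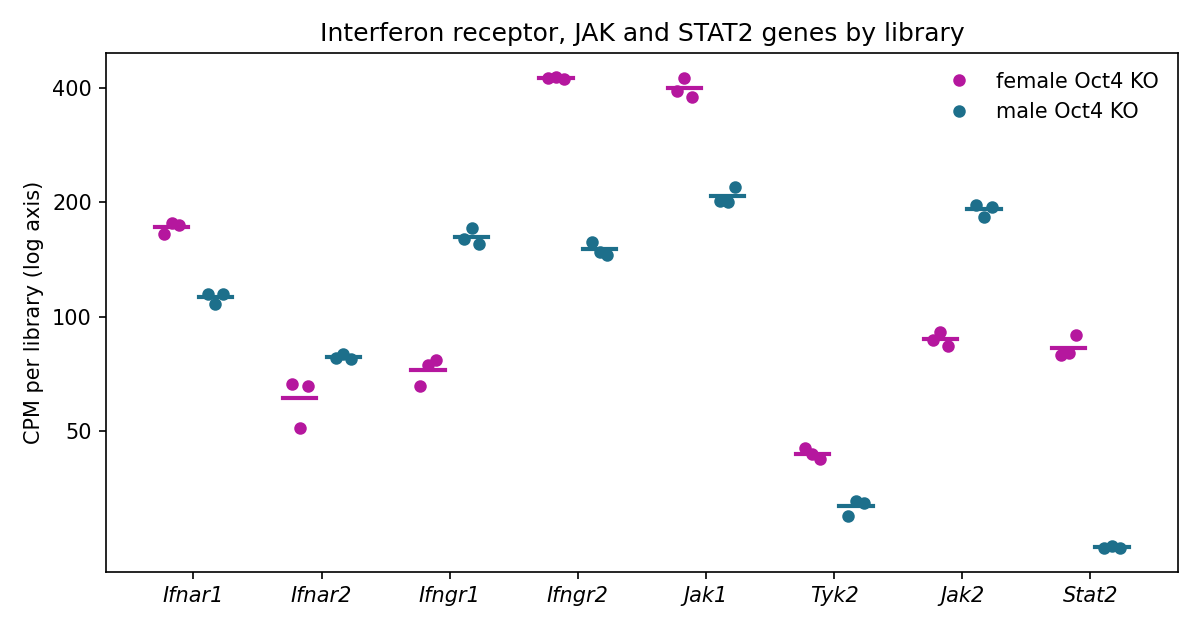
CPM of the 8 members with reads in each library (log axis), female Oct4 KO libraries left and male Oct4 KO libraries right of each pair; points are libraries and lines are means of 3. The groups of points do not overlap for any of the 8 genes, and they are farthest apart for Stat2, at 82.9 CPM on average in female and 24.8 CPM in male cells.

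Ifnb1 (mm10 chromosome 4, 88522025 to 88522774, minus strand) is a gene of 750 bases that encodes the interferon made by most cells on viral or nucleic acid sensing. It had 0 counts in each of the 6 libraries. A count of 0 allows up to 3 counts, which is 0.145 to 0.154 CPM in the female and 0.123 to 0.151 CPM in the male libraries and covers counting error only. The other ligand genes were as low. Of 20 further type I, II and III interferon genes, 16 had 0 counts in all 6 libraries, Ifng among them, and none reached 1 CPM in any library. In female libraries Ifnz had counts of 4, 0 and 3, against 3, 0 and 5 in male ones, and Ifne had 0, 4 and 0 against 0, 0 and 2. Ifna7 and Ifna13 had 1 and 2 counts in male replicate 3 and 0 elsewhere. Interferon alpha genes are near-identical copies, so reads could be shared among them and their counts are uncertain. No ligand gene was thus read above the limit of this depth by more than a few counts, in either sex.

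The type I receptor genes moved in opposite directions by modest amounts. Ifnar1 (chromosome 16, 91485238 to 91507441, plus strand) encodes the chain that binds TYK2. It was at 165, 176 and 174 CPM in female libraries and at 115, 108 and 115 CPM in male libraries. Every female library lay above every male library. The log2 fold change, female over male, was 0.61 ± 0.08 (SE, n = 3 each, edgeR adjusted p = 2.67e-06), or 1.53-fold. Ifnar2 (chromosome 16, 91372783 to 91405589, plus strand) encodes the chain that binds JAK1 and holds the main STAT docking region. It was at 66.5, 50.8 and 65.8 CPM in female libraries and at 77.8, 79.9 and 77.5 CPM in male libraries. Female replicate 2 stood below the other female libraries, and all 3 were below the male ones. The log2 fold change was -0.36 ± 0.10 (edgeR adjusted p = 0.00486), the smallest of the 8. Of the exon bases of Ifnar2, 9.46% are shared with Gm21970, a gene annotated across Ifnar2 and its neighbour Il10rb on the same strand, which had 0 counts in all 6 libraries. The sources used here do not say how reads in shared exons were assigned, which makes the Ifnar2 level uncertain. Gene counts also do not separate membrane-bound from soluble forms of IFNAR2.

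The type II receptor genes parted more widely. Ifngr1 (chromosome 10, 19591949 to 19610229, plus strand) encodes the ligand-binding chain, which docks JAK1. It was at 65.8, 74.6 and 77.1 CPM in female libraries and at 160.3, 171 and 155 CPM in male libraries. The log2 fold change was -1.16 ± 0.09 (edgeR adjusted p = 4.1e-09), so the male level was 2.23 times the female one. Ifngr2 (chromosome 16, 91547072 to 91565623, plus strand) encodes the accessory chain, which brings JAK2. It was at 423, 427 and 422 CPM in female libraries and at 157, 148 and 145 CPM in male libraries. These female libraries were the closest set of values of any member, within 1.01-fold of each other. The log2 fold change was 1.50 ± 0.07 (edgeR adjusted p = 2.36e-11), or 2.82-fold, and was larger in size than that of 85.5% of all genes tested.

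Among the kinases, Jak1 and Tyk2 were higher and Jak2 was lower in female cells. Jak1 (chromosome 4, 101152367 to 101265282, minus strand), the kinase shared by both receptors, was at 391, 425 and 378 CPM in female libraries and at 202, 200.2 and 219 CPM in male libraries. The sexes were well apart, with a log2 fold change of 0.94 ± 0.08 (edgeR adjusted p = 2.09e-08). Jak2 (chromosome 19, 29251828 to 29313080, plus strand), the kinase of the type II receptor and of many cytokine and growth hormone receptors, was at 86.8, 91.3 and 83.8 CPM in female libraries and at 197, 183 and 194 CPM in male libraries. Here the male libraries were the higher ones, with a log2 fold change of -1.13 ± 0.08 (edgeR adjusted p = 1.79e-09) and a male level 2.19 times the female one. Tyk2 (chromosome 9, 21104068 to 21131243, minus strand), the kinase of the type I receptor, was at 45.0, 43.6 and 42.3 CPM in female libraries and at 30.0, 32.8 and 32.4 CPM in male libraries. Its log2 fold change was 0.46 ± 0.10 (edgeR adjusted p = 0.000485). With a per-library correction for gene length the Tyk2 value was 0.19 and was no longer called (edgeR adjusted p = 0.0801), while the other 7 tested members kept their call and direction. Of the Tyk2 exon bases 8.07% are shared with the antisense gene 1700084C06Rik, to which 3 counts in all were assigned, and reads of the pair cannot be told apart without strand.

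Stat2 (chromosome 10, 128270559 to 128292849, plus strand), which gives ISGF3 its activation domain, differed most. It was at 79.4, 80.2 and 89.2 CPM in female libraries and at 24.7, 25.0 and 24.6 CPM in male libraries. The male values were within 1.02-fold of each other, and the lowest female library was 3.17 times the highest male one. The log2 fold change was 1.74 ± 0.09 (edgeR adjusted p = 4.23e-11), or 3.35-fold, larger in size than that of 88% of all genes tested. Stat2 was the member with ISRE letters in its promoter window.

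**Figure D2:**
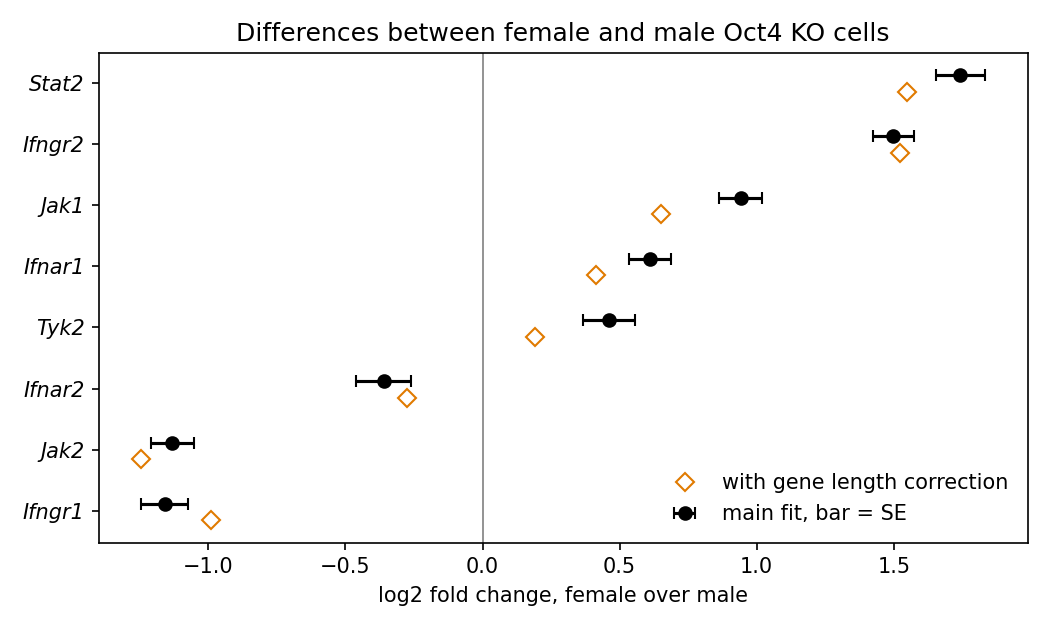
Log2 fold change, female over male Oct4 KO cells, of the 8 tested members, with black points and SE bars for the edgeR fit (n = 3 each) and open diamonds for the fit with a gene length correction. Values run from 1.74 for Stat2 to -1.16 for Ifngr1, and the correction places Tyk2 at 0.19, against 0.46 without it.

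Because of these opposite changes the RNA balance between chain genes and between kinase genes differed between the sexes. Levels are compared between genes here as CPM per kilobase of exon length. Ifnar2 stood at 0.717, 0.515 and 0.673 of Ifnar1 in female libraries and at 1.21, 1.32 and 1.21 of it in male libraries. The gene with more RNA per length was thus Ifnar1 in each female and Ifnar2 in each male library, with the Ifnar2 level uncertain as described above. Ifngr1 stood at 0.206, 0.231 and 0.242 of Ifngr2 in female libraries and at 1.35, 1.53 and 1.41 of it in male libraries, a 6.32-fold difference between the sexes. RNA of the accessory chain was higher per length in female cells and RNA of the ligand-binding chain in male cells. Amounts of the receptor chains themselves were not measured. Jak2 stood at 0.319, 0.309 and 0.319 of Jak1 in female libraries and at 1.40, 1.31 and 1.27 of it in male libraries. Tyk2 stood at 0.121, 0.108 and 0.118 of Jak1 in female libraries and at 0.156, 0.172 and 0.156 of it in male libraries. For each of these 4 ratios the sexes did not overlap, and the exact two-sided permutation test gave p = 0.1 (adjusted p = 0.1 over the 4), the smallest that 3 against 3 libraries allow.

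**Figure D3:**
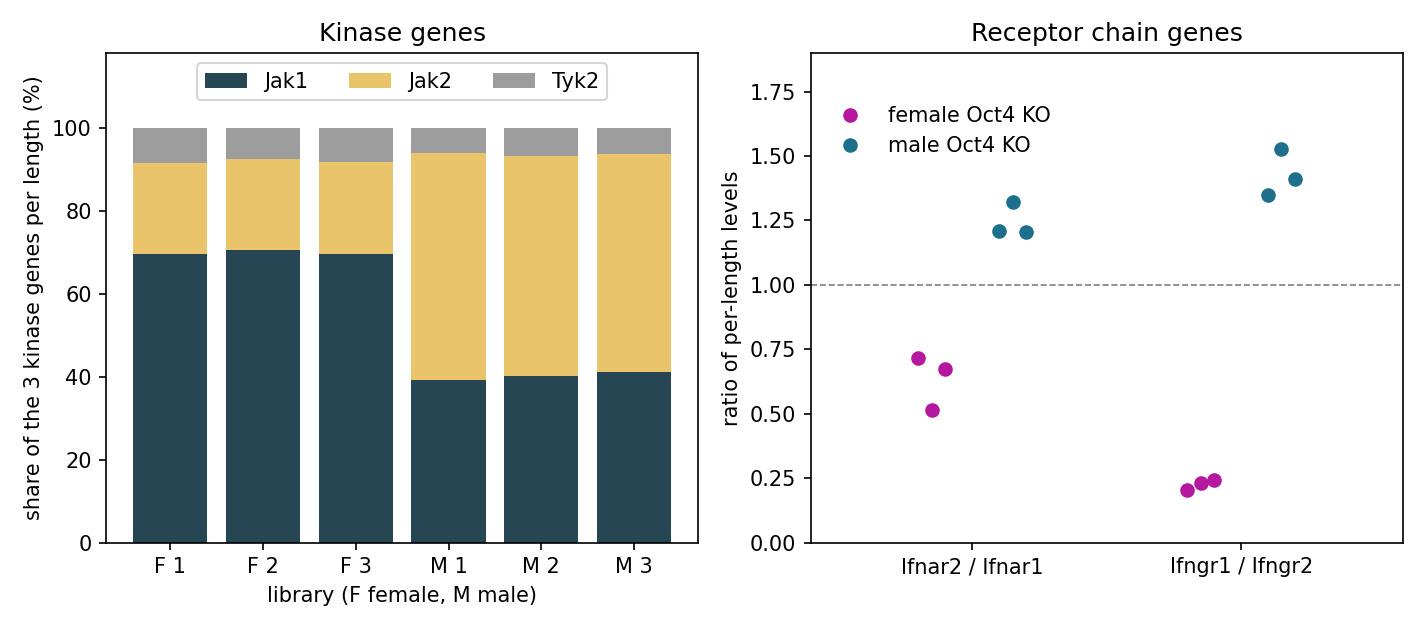
Left, the share of Jak1, Jak2 and Tyk2 in their summed per-length level in each library (F, female; M, male); right, per-length ratios of the receptor chain genes, 1 point per library, with the dashed line at equal levels. Jak1 makes up 69.5% to 70.6% in female and 39.1% to 41.2% in male libraries, and both receptor ratios lie below 1 in female and above 1 in male libraries.

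The per-length order of the 8 members accordingly differed between the sexes. In female cells Ifngr2 led at 113 ± 0.793 CPM per kilobase (SD, n = 3), followed by Jak1 at 55.1 ± 3.35, Ifnar1 at 28.9 ± 0.978, Ifngr1 at 25.5 ± 2.08, Ifnar2 at 18.3 ± 2.66, Jak2 at 17.4 ± 0.752, Stat2 at 14.0 ± 0.92 and Tyk2 at 6.36 ± 0.196. Of these neighbours Ifnar2 and Jak2 overlapped in their library values. In male cells Ifngr1 led at 56.9 ± 2.91 CPM per kilobase, followed by Ifngr2 at 39.9 ± 1.65, Jak2 at 38.0 ± 1.41, Jak1 at 28.7 ± 1.48, Ifnar2 at 23.5 ± 0.387, Ifnar1 at 18.9 ± 0.659, Tyk2 at 4.62 ± 0.223 and Stat2 at 4.18 ± 0.0364. There the overlapping neighbours were Ifngr2 and Jak2. Tyk2 was the lowest kinase gene in both sexes, and Stat2 lay above it in female and below it in male cells.

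Ifnar2, Ifnar1 and Ifngr2 lie in this order, on the plus strand, within 193 kb of chromosome 16, together with Il10rb, which encodes a chain shared by the receptors of interleukin 10 and interferon lambda. The table places 19 genes in this stretch and 100 kb to each side, of which 9 could be tested. Ifngr2, Ifnar1, Son and Tmem50b were higher in female cells, Ifnar2 and Dnajc28 were lower, and Il10rb, Gart and Gm15964 were not called. Of all genes tested 60.7% were called, so a call was the common outcome here too. Son, which encodes a splicing cofactor, was at 445 ± 37.3 CPM in female and 252 ± 23.0 CPM in male cells (log2 0.82 ± 0.09, edgeR adjusted p = 4.65e-07). Il10rb was at 31.0 ± 4.54 and 35.5 ± 4.70 CPM (log2 fold change -0.19 ± 0.13, edgeR adjusted p = 0.201), although 14.9% of its exon bases are shared with Gm21970. The stretch as a whole therefore did not share a direction, although Ifnar1, Ifngr2 and Tmem50b, which follow each other among the tested genes, were all higher.

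**Figure D4:**
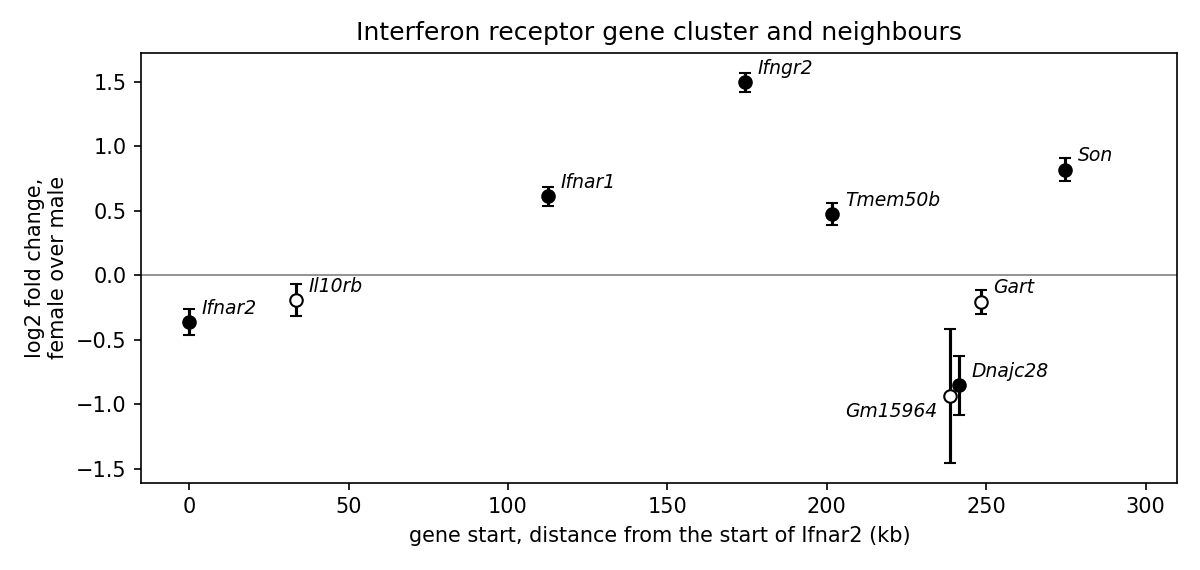
Log2 fold change, female over male Oct4 KO cells, with SE bars (n = 3 each) of the 9 tested genes, against the distance of the gene's lower coordinate from the start of Ifnar2 in kb. Filled points were called (edgeR adjusted p under 0.05) and open points were not; values run from 1.50 for Ifngr2 to -0.94 for Gm15964, with higher and lower genes next to each other.

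The partners of the members in the same pathway were split as well. Of 10 further receptor, JAK, STAT and IRF9 genes, 9 were tested, 4 of them higher in female cells, 2 lower and 3 without a call. This is near the background, where 60.7% of all genes tested were called, for these 9 genes. Their median log2 fold change was 0.28, against -0.01 over all genes tested. Irf9, the DNA-binding partner of STAT2 in ISGF3, was at 56.5, 54.0 and 64.8 CPM in female libraries and at 18.2, 18.1 and 17.3 CPM in male libraries (log2 fold change 1.71 ± 0.10, edgeR adjusted p = 3.57e-10). Stat2, at 1.74 ± 0.09 on the same scale, was likewise higher in female cells. Per length Irf9 was at 10.9 ± 1.05 CPM per kilobase in female and 3.32 ± 0.0888 in male cells, below Stat2 in each sex. Stat3, which signals for interleukin 6 family cytokines, and Jak3, the kinase of the common gamma chain, were higher by 0.52 ± 0.07 and 0.44 ± 0.11. Stat6, which signals for interleukin 4, was lower (-0.32 ± 0.08). Ifnlr1, the ligand-binding chain for interferon lambda, was also lower but near the detection limit, at 0.251 ± 0.154 CPM in female and 1.30 ± 0.282 CPM in male cells.

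Patterns were also compared across the 6 libraries. Each gene's log2 CPM was centred on its own mean, and genes were ranked by the root mean square difference from a member, over 10406 other protein-coding genes that averaged 5 CPM or more. The gene most like Stat2 was Irf9, at 0.04 log2 units, followed by Pdpn at 0.06. Those most like Ifngr2 were Usp11 and Arrdc4, both at 0.06, and those most like Jak1 were Trim33 and Rbfox2, both at 0.02. Ifnar1 lay closest to Ywhag and Rab10, Ifnar2 to Poldip2 and Bcam, and Tyk2 to Zdhhc8 and Acp2, all within 0.03. Ifngr1 lay closest to Coq7 and Tmem98, and Jak2 to Cluap1 and Plat, within 0.05. Since most of each pattern is the difference between the sexes, such likeness is common: 2499 genes lay within 0.2 of Tyk2 and 161 within 0.2 of Stat2.

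Regulators that limit the pathway also moved in both directions. Of 19 such genes 17 were tested. Of these 11 were higher in female cells, and Socs2, Socs5, Pias4 and Ptpn1 were lower, which leaves Socs1 and Pias2 not called. The shares over all genes tested were 30.9% higher and 29.8% lower. The median log2 fold change of the 17 was 0.36. Socs2, an inhibitor of growth hormone signalling through JAK2, was at 3.09, 4.51 and 3.85 CPM in female libraries and at 127, 127 and 115 CPM in male libraries. Its log2 fold change was -5.01 ± 0.12 (edgeR adjusted p = 3.96e-15), so that Socs2, like Jak2, was lower in female cells. Socs3, an inhibitor of interleukin 6 family signalling, went the other way, at 188, 144 and 186 CPM in female libraries and at 50.6, 50.8 and 51.0 CPM in male libraries (log2 fold change 1.76 ± 0.10, edgeR adjusted p = 1.41e-10). Usp18, which removes ISG15 from proteins and blocks signalling at IFNAR2, was at 44.2, 57.4 and 60.3 CPM in female libraries and at 0.379, 1.66 and 1.11 CPM in male libraries. Usp18 fell under the minimum of the low-count filter in a male library, so the filter favoured a higher call for it. Socs5, of the same family, was also lower (log2 -1.52 ± 0.09). Socs1, the inhibitor most tied to interferon gamma, was at 9.55 ± 2.80 CPM in female and 10.1 ± 1.50 CPM in male cells and was not called (log2 -0.08 ± 0.21, edgeR adjusted p = 0.77).

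Upstream of the ligand, the sensor genes Ddx58, Ifih1, Dhx58, Tlr3 and Tlr4 were higher in female cells and the sensor gene Mb21d1 (cGAS) was not called. Of the adaptor genes, Mavs and Ticam1 were lower and Myd88 and Tmem173 (STING) were not called. Of 20 induction genes, all tested, 11 were higher, 5 were lower and 4 were not called, beside 30.9% higher and 29.8% lower of all genes tested. The median log2 fold change of this list was 0.42. Among the higher were Tlr4, the lipopolysaccharide receptor (2.62 ± 0.10), Trim25, a ubiquitin ligase that acts on RIG-I (2.07 ± 0.09), Ddx58, the RIG-I gene itself (1.83 ± 0.13), and Ifih1, the MDA5 gene (3.32 ± 0.20). Several of these are known to be induced by interferon. Irf3 and Tbk1, the factor and the kinase that switch on Ifnb1, were lower (-0.60 ± 0.10 and -0.55 ± 0.10), as were Ticam1 (-0.40 ± 0.12), Mavs (-0.26 ± 0.09) and Rela (-0.24 ± 0.08). With the gene length correction 8 of the 20 were called higher instead of 11, and 2 were called lower instead of 5.

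Known targets of the pathway are given beside its components. Of 20 ISGF3 targets 19 passed the low-count filter, but 9 of these fell under its minimum in at least 1 male library and so could pass only with female libraries over it. The other 10 met it in all libraries, and all 10 were higher in female cells, where 30.9% of all genes tested were. The list was chosen with earlier results of these data known, so this count is not independent of them. The 9 were also called higher, a direction that the filter favoured. Log2 fold changes of the 10 ran from 0.76 for Ifit2 to 4.80 for Ifit1. The median of all 19 was 4.40, but it includes the 9 that the filter favoured and so is no unselected measure. It was the same with Oas3, which had no male counts and was at least 28.1-fold higher, set to that bound. The 19 include Usp18, Ifih1 and Irf7 of the lists above, and Irf9. Oasl2, of the oligoadenylate synthetase family, was at 76.4 ± 12.5 CPM in female and 3.63 ± 1.88 CPM in male cells, and Ifit1 at 56.1 ± 12.3 and 2.01 ± 0.488 CPM. Ifi44, among the 9 that the filter favoured, was at 44.0 ± 6.32 CPM in female and 0.37 ± 0.326 CPM in male cells. Of 17 targets of interferon gamma 14 were tested, and 10 were higher, 3 of them under the filter's minimum in a male library. Icam1 and Irf8 were lower and Irf1 and Socs1 were not called. Irf8 was near the detection limit, at 0.0322 ± 0.0558 CPM in female and 0.687 ± 0.185 CPM in male cells. It fell under the filter's minimum in female libraries, so the filter favoured a lower call. The median of the 14, with these filtered genes included, was 2.13. Iigp1, an immunity-related GTPase, was at 75.7 ± 8.46 and 4.82 ± 0.715 CPM, Gbp3, a guanylate-binding protein, at 44.4 ± 9.88 and 1.78 ± 0.905 CPM, and Nlrc5, which drives class I histocompatibility genes, at 25.7 ± 3.59 and 0.255 ± 0.0925 CPM, each in female and male cells. Nlrc5 is among the 3 under the filter's minimum in a male library, so the filter favoured a higher call for it. Icam1, an adhesion receptor for leukocytes, was at 23.5 ± 2.20 and 91.8 ± 5.41 CPM. Many of these genes also respond to type I interferon, so the list does not separate the receptors. The members thus differed between the sexes by 0.36 to 1.74 on the log2 scale, in both directions, beside 10 ISGF3 targets, over the filter's minimum in every library, that were all higher in female cells.

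**Figure D5:**
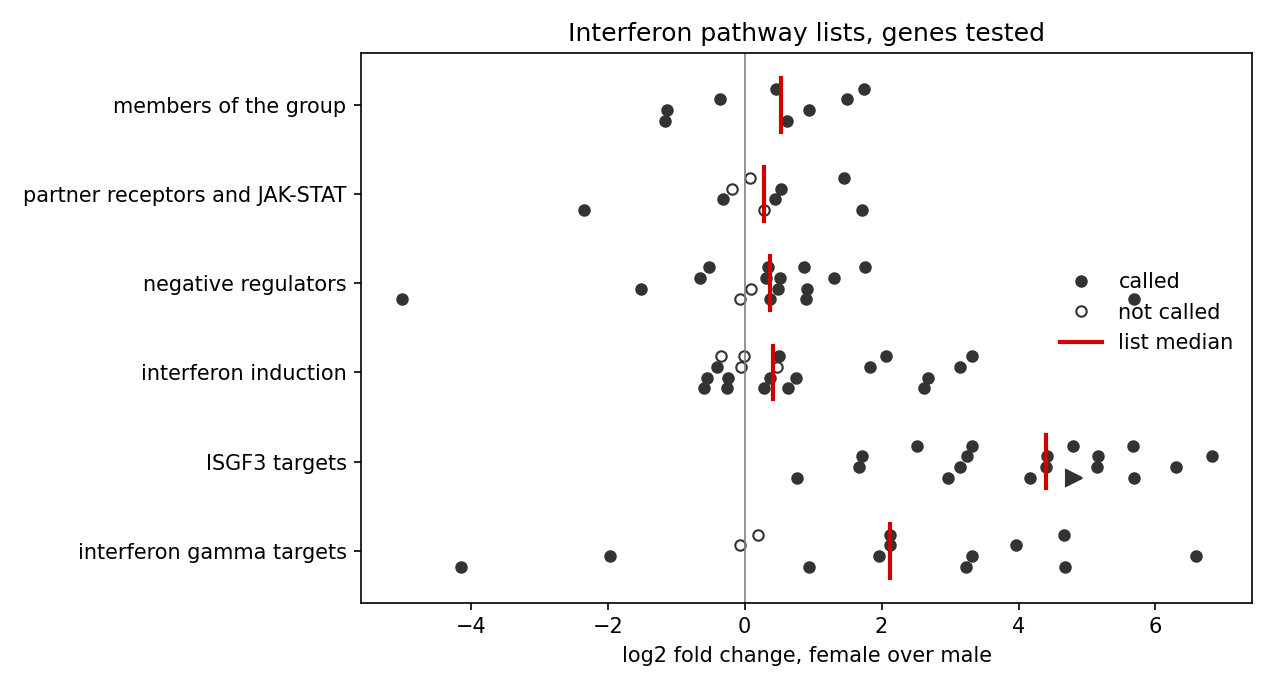
Log2 fold change, female over male Oct4 KO cells, of the tested genes of 6 lists; filled points were called (edgeR adjusted p under 0.05), open points were not, red bars are list medians, and the triangle is the lower bound of Oas3. The medians are 0.54 for the members and 4.40 for the ISGF3 targets, 9 of which were under the low-count filter's minimum in a male library. The 4.40 includes these 9, for which the filter favoured a higher female level.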

How the data were processed

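The 6 libraries were made from poly-A selected, fragmented RNA with random hexamer priming, per the labels' protocols, which do not say whether strand was kept. HISAT2 2.0.5 and featureCounts 1.5 and the build mm10 are named in the submitters' processing notes. The authors deposited raw read counts per gene, not normalised, with 0 columns of other samples. Treatment of multi-mapping reads and the strand setting are not given in the sources used here. Deposited gene lengths of the members equalled the summed exon bases in GENCODE M21.

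Counts were fitted over the whole table with edgeR 4.0.16 in R 4.3.3 (filterByExpr, TMM, quasi-likelihood F test, sex as the only term), two-sided, with Benjamini-Hochberg adjustment over 14814 genes and a call at an adjusted p under 0.05. CPM are taken over the library size multiplied by the TMM factor (0.948 to 0.968 in female and 1.03 to 1.06 in male libraries). The SE is the size of the fold change on the log2 scale over the root of the F statistic. Counts of libraries of the same sex differed beyond sampling noise (chi-square 7.42 to 16.0 for each degree of freedom), and all were used as separate samples. The fit was tested on simulated data in which few genes changed, unlike these data, so that test does not check the scaling here. Alternatives were DESeq2 1.42.0, limma-voom 3.58.1, 3 other scalings, no filter, a replicate block, a per-library loess correction for gene length (span 0.5) and leaving out each library.

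The members and gene lists were chosen with earlier results of these data known. Named were all members, up to 4 genes of each list with the smallest adjusted p, every called gene where a direction held 5 or fewer, the called genes near the receptor cluster, and the 2 genes most like each member. Other genes named, such as Socs1, Dhx58, Tlr3, Mb21d1, Myd88, Tmem173, Pias2, Il10rb, Irf1, Gart, Gm15964 and Isg15, were chosen after their values were seen. No amino acid sequences were used here. Single values of some genes in these lists, and some sequences, are not reported here; the counts include those genes.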

Additional observations from a re-analysis of the deposited data

How the results depend on the processing

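Every tested member kept its direction under all 14 alternatives, and all but Tyk2 kept their call. With the gene length correction the log2 fold change of Tyk2 was 0.19 (adjusted p = 0.0801). Over the alternatives Stat2 ran from 1.55 to 1.78, Ifngr2 from 1.38 to 1.53, Jak1 from 0.65 to 0.98, Ifnar1 from 0.41 to 0.64, Jak2 from -1.25 to -1.10, Ifngr1 from -1.28 to -0.99 and Ifnar2 from -0.48 to -0.24. The Ifnar2 value nearest 0 came without female replicate 2. Scaling by total counts moved the median of all genes to -0.13. Tyk2 is the reason why the members called higher numbered 4 with the length correction. Of the induction genes 8 were higher and 2 lower with it, against 11 and 5 without. Of the regulators that limit the pathway 8 were higher with it, against 11, and of the partner genes 3, against 4. The 1 endothelial gene called lower, Pecam1, was not called lower with DESeq2, with its size factors in edgeR, with no filter or with the replicate block (0 genes each), nor when any 1 library was left out (0 to 0); with DESeq2 and with no filter 1 endothelial gene was called higher. Of the leukocyte genes 2 were lower with total counts, upper quartile scaling or the length correction, and 1 to 2 on leaving out libraries. The cause was not tested. Equal sample numbers did not deviate together (r of deviations -0.02, -0.10 and -0.15). With 3 libraries of each sex this cannot tell whether they share more than a number. With the replicate block 4360 genes were higher and 4165 lower, against 4580 and 4413, and every tested member kept its call. No per-length ratio changed direction on leaving out a library or with the length correction. At this depth 0 counts of a ligand still allow a level of up to about 0.15 CPM.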

Other observations

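Of 19 other interferon ligand genes with a promoter window, 11 held the ISRE letters and 10 the GAS letters, against 3.44% and 8.3% of all windows, while these genes had at most a few counts in any library. Interferon alpha genes are copies of each other, so their windows are not independent. Of 16 ISGF3 targets with a window 9 held the ISRE letters, among them Ifit1, Ifit3, Isg15, Rsad2 and Eif2ak2. Irf9, the gene most like Stat2 across the libraries, was not among the genes with a match to either motif. Not every gene of its lists had a window, so the lack of a match does not show that the Irf9 promoter lacks these letters.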
